A study of Rattus norvegicus with 9 samples.

Results

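The livers of rats with acute-on-chronic liver failure (ACLF) that had been treated with the UTOpiA circuit were compared with livers of normal rats, gene by gene, to find which genes and functions were away from normal after treatment and which were near it. The comparison used 6 of the 9 libraries of the study, 3 livers of the UTOpiA group and 3 of the normal group, and all 32883 genes of the deposited count table, of which 14089 had enough counts to be tested. The remaining 3 libraries, from ACLF rats treated with an empty circuit, entered the fit to share the estimate of the spread and are given beside a few of the named genes and lists.

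All rats were male Sprague-Dawley rats of 8 to 11 weeks. Normal livers came from rats without the disease model. In both ACLF groups the bile duct was ligated for 21 days (BDL) and lipopolysaccharide (LPS) was injected at 0.25 mg/kg, the rats were connected to an extracorporeal whole-blood circuit for 2 h, and the liver was taken 24 h after LPS. In the UTOpiA group the circuit held a column that adsorbs granulocytes and monocytes (granulocyte and monocyte/macrophage apheresis, GMA) in tandem with encapsulated hepatocyte-like cells made from human induced pluripotent stem cells (iHLCs). In the empty group it held neither. The livers were taken from rats that survived to that time, so that rats that had died are not represented, and BDL, LPS, the surgery and the circuit all separate the UTOpiA group from the normal group and cannot be told apart in this comparison. The tissue label was checked against hepatocyte markers. All 11 were present in every UTOpiA and normal liver, with summed levels of 38300 to 59300 TPM in UTOpiA livers against 150000 to 162000 TPM in normal livers. Most of that gap was albumin (Alb), at 13020 to 29940 TPM in UTOpiA livers and 114700 to 127200 TPM in normal livers, so the sums do not show a like fall of all markers.

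Hepatocytes make most plasma proteins, dispose of ammonia through the urea cycle, burn and synthesise fatty acids, release glucose and clear drugs and bile acids. When bile cannot drain, bile ducts proliferate and fibroblasts and stellate cells lay down collagen around them. When bacterial products such as LPS reach the liver, Kupffer cells release cytokines, neutrophils enter, and hepatocytes switch secretion from albumin to acute-phase proteins. In bulk RNA, fewer cells of a type and less RNA per cell cannot be told apart.

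Between 14241172 and 17321677 reads were counted on genes per library, and from 15567 to 17505 genes had a count. Levels are given as TPM, transcript shares scaled by gene length that sum to the same total in every library, in the order of replicates 1, 2 and 3. Differences are log2 fold changes of UTOpiA minus normal with their standard error (SE) from the counts, fitted with edgeR and scaled by TMM. TPM carry no TMM scaling, so a ratio of TPM differs somewhat from the fitted fold change. Every adjusted p is from edgeR's quasi-likelihood test with Benjamini-Hochberg adjustment over the 14089 genes, and "called" means an adjusted p under 0.05 with a fold change above 2. Replicates are labelled as biological, and n = 3 in each group throughout.

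A total of 2563 genes were called higher in UTOpiA livers than in normal livers (18.2% of the genes tested) and 959 were called lower (6.81%). Of the genes called higher, 518 had at most 3 counts in every normal liver, and 27 of the genes called lower had at most 3 in every UTOpiA liver, so that their fitted folds are no bounds. The median log2 fold change over all genes tested was 0.05. With library totals alone as the scaling, the median over all genes moved to 0.42 and 3437 genes were called higher and 486 lower, so that 87.6% of calls were higher instead of 72.8%. In 39.0% of genes the 3 UTOpiA livers all lay above the 3 normal livers in TPM, and in 13.4% all lay below. The 95% interval of the fold change lay inside 2-fold for 5652 genes (40.1%), which are called near normal below, and 4915 genes (34.9%) were neither called nor near normal.

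**Figure D1:**
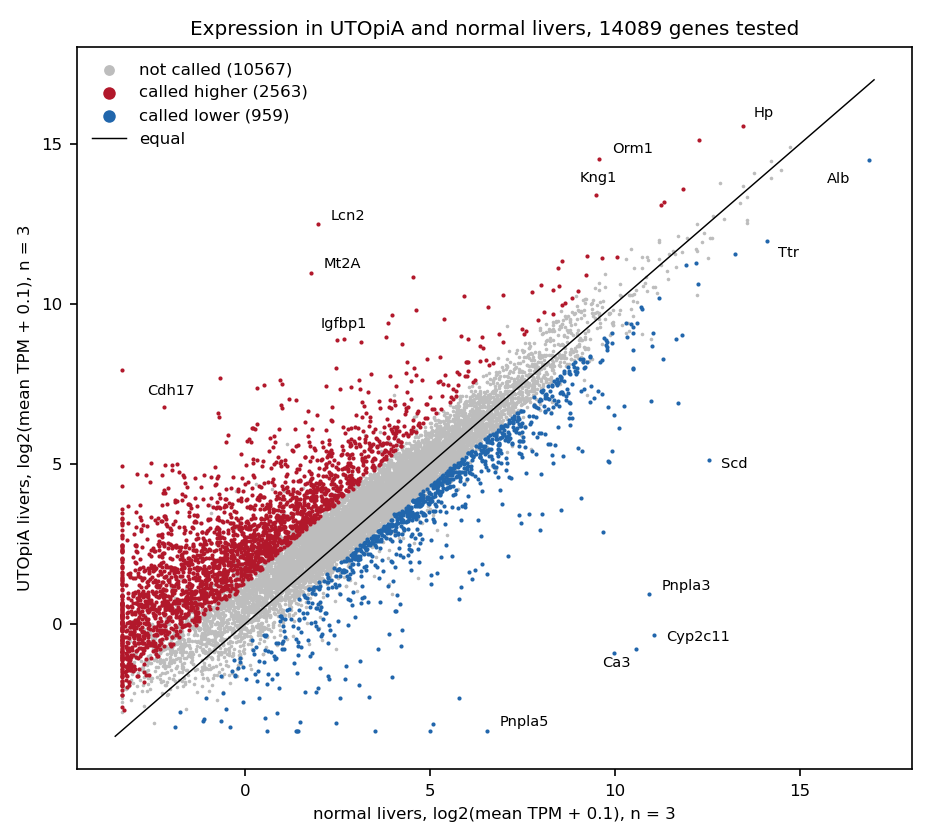
Mean expression of each of the 14089 genes tested in normal livers (x axis) and UTOpiA livers (y axis), both as log2(mean TPM + 0.1) over 3 livers, with genes called higher in red, genes called lower in blue and the line of equal expression in black. The 2563 red genes spread far above the line at low levels in normal liver, while Alb, Ttr, Scd, Pnpla3, Cyp2c11 and Ca3 lie below it at high levels.

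The livers of the UTOpiA group stood away from normal to different degrees. In UTOpiA replicates 1, 2 and 3, respectively 30.7%, 37.1% and 27.8% of genes lay more than 2-fold from the mean normal liver, while each normal liver had 6.01% to 6.79% of genes at that distance from the mean of the other normal livers. Livers of the empty group had 35.7% to 39.4%. UTOpiA replicate 2 therefore lay farther out than the other UTOpiA livers, and counts of list members called without it are given below for several functions. Without it 2091 genes were called higher and 725 lower.

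The messenger RNA pool itself had shifted. Genes called higher held 24% of all TPM in UTOpiA livers on average against 4.26% in normal livers, and genes called lower held 8.21% against 30.2%. A few genes for secreted proteins carried most of this shift, as seen when the called genes were ranked by the TPM they gained or lost, a ranking made after the values were seen. The 7 genes with the largest gain held 62.2% of the TPM gained over all genes called higher, and the 7 with the largest loss held 59.9% of the TPM lost.

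Albumin (Alb), the main plasma protein of hepatocytes, accounted for 43.6% of the loss. It stood at 29940, 13020 and 26860 TPM in the UTOpiA livers against 114700, 115800 and 127200 TPM in the normal livers. Every UTOpiA liver was far below every normal liver, with replicate 2 lowest (log2 fold change -2.6 ± 0.57 (SE), adjusted p = 0.00631). Transthyretin (Ttr), the carrier of thyroid hormone and retinol-binding protein, stood at 5731, 2752 and 3619 TPM in the UTOpiA livers against 18670, 16600 and 17940 TPM in the normal livers (log2 fold change -2.42 ± 0.50 (SE), adjusted p = 0.00507). The fatty acid-binding protein Fabp1 was at 4105, 1436 and 3512 TPM against 8694, 9125 and 11400 TPM (log2 fold change -1.93 ± 0.50 (SE), adjusted p = 0.0136). None of these groups overlapped.

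Much of the gain came from acute-phase proteins and from a kininogen that was listed with the plasma carriers. Haptoglobin (Hp), which binds free haemoglobin, was the most abundant of them, at 43760, 49950 and 51550 TPM in the UTOpiA livers against 11940, 10040 and 11950 TPM in the normal livers (log2 fold change 1.81 ± 0.34 (SE), adjusted p = 0.00304), and accounted for 18.8% of the TPM gained. Haemopexin (Hpx), which binds haem, stood at 29200, 35180 and 42870 TPM against 5876, 3919 and 5042 TPM (log2 fold change 2.58 ± 0.43 (SE), adjusted p = 0.00184). The acid glycoprotein Orm1 stood at 20110, 19280 and 31750 TPM against 994, 609 and 687 TPM (log2 fold change 4.71 ± 0.61 (SE), adjusted p = 0.000567), and the kininogen Kng1 at 7715, 10920 and 14140 TPM against 743, 689.8 and 727 TPM (log2 fold change 3.66 ± 0.50 (SE), adjusted p = 0.000732). In all of them the lowest UTOpiA liver was above the highest normal liver by a wide margin. The fibrinogen chains Fga, Fgb and Fgg, which form the clot, rose less, with log2 fold changes of 1.56, 1.56 and 1.45 (adjusted p = 0.0305, 0.0311 and 0.0331), and their calls were lost without any library except UTOpiA replicate 1, with adjusted p up to 0.108.

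**Figure D2:**
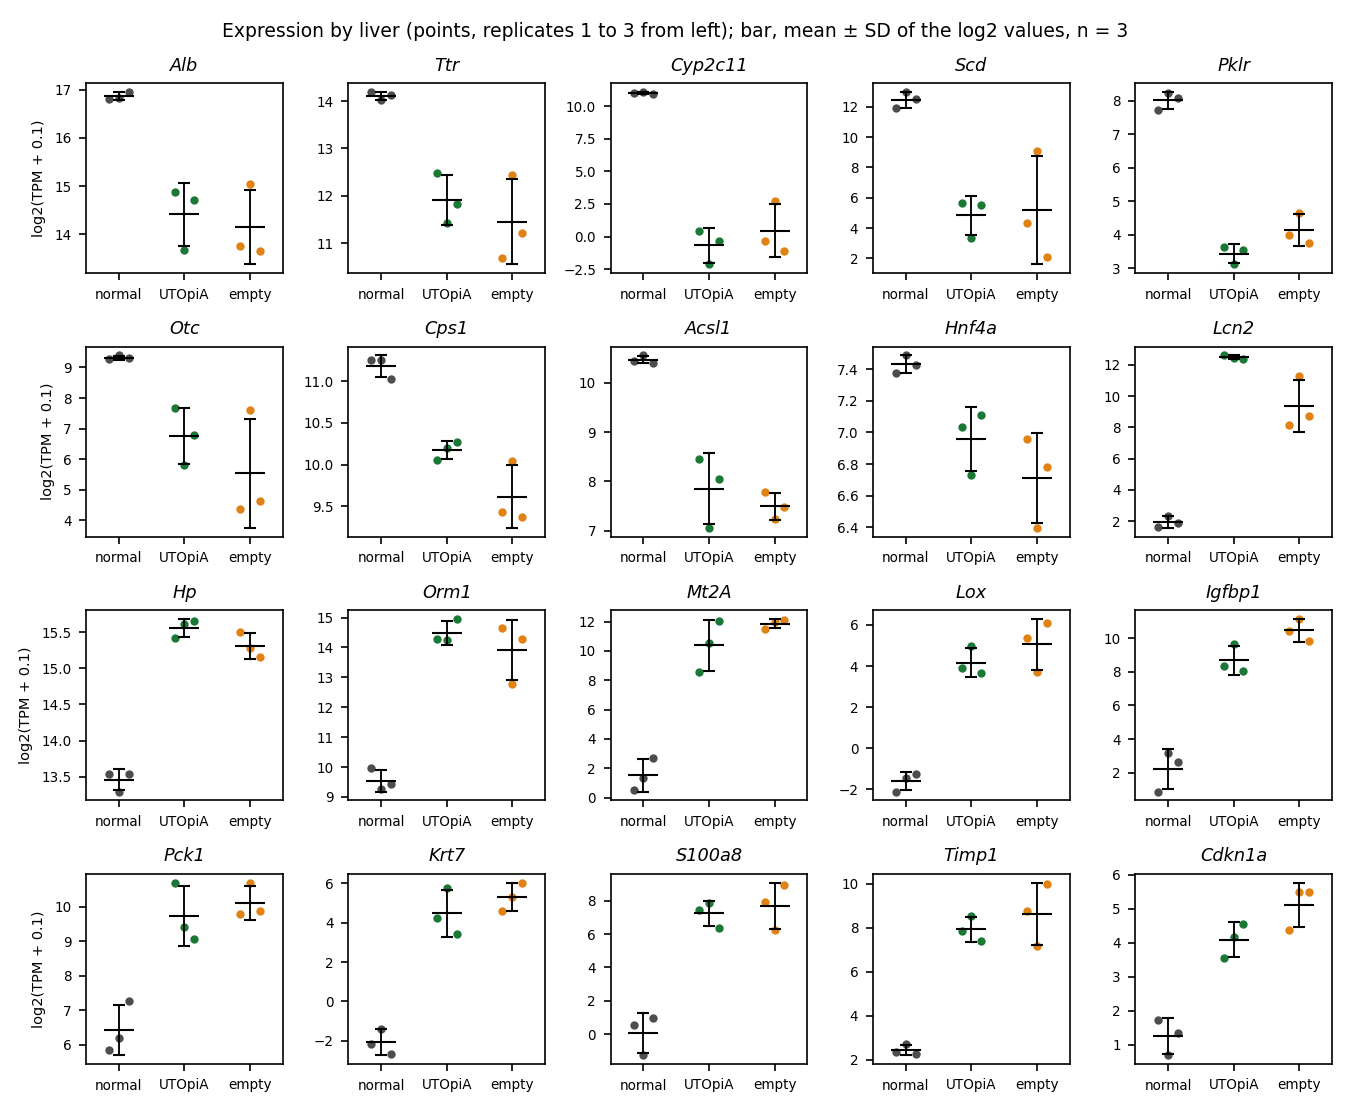
Expression of 20 genes in each liver as log2(TPM + 0.1), with normal, UTOpiA and empty livers from left to right in each panel, points for replicates 1 to 3 and bars for the mean ± SD of 3 livers. The y axes differ between panels and do not start at 0, and the UTOpiA and normal livers do not overlap in any of the 20 panels, with the widest gaps in Lcn2 (higher) and Cyp2c11 (lower) and the narrowest in Hnf4a.

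Promoters were read for the letters of a liver factor and of inflammatory factors. In 10546 of the genes tested with a RefSeq promoter (assembly GRCr8), the 250 bases before the gene start were searched on both strands for CAAAGTCCA (HNF4), GGGNNTTTC (NF-kB), TTGCNNAAT (C/EBP) and TGANTCA (AP-1), where N is any base. The HNF4 letters were in 1.12% of promoters of genes called lower, 0.217% of those called higher and 0.389% of all tested, that is in 8, 4 and 41 promoters. NF-kB letters were in 3.22%, 4.88% and 4.05%, C/EBP letters in 1.82%, 1.68% and 1.58% and AP-1 letters in 6.30%, 6.78% and 4.69%. The counts were small for HNF4, and no test was made. A match is only a match of letters, and no match says nothing of the factor.

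The stretches that follow are shown because Cps1, called lower, and Mt2A, called higher, are among the most abundant named genes whose promoter holds any of these letters. They run 5′ to 3′ on the gene's strand with the matched letters in capitals and at least 20 bases to each side, or up to the edge of the window. In Cps1 the HNF4 letters lie on the opposite strand 71 to 63 bases before the start (GRCr8 chr9:76063772-76063820, plus strand). In Mt2A the AP-1 pattern matches on both strands, 237 to 231 bases before the start (chr19:10838917-10838958, minus strand).
Cps1: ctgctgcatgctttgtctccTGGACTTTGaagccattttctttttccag
Mt2A: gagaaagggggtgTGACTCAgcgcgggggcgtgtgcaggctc
Cps1 fell by 1.30 on the log2 scale and Mt2A rose by 9.04.

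Of 27 positive acute-phase genes tested, 17 were called higher and 1 lower, with a median log2 fold change of 1.56. The count fell to 10 without UTOpiA replicate 3 or without normal replicate 2, and to 11 without normal replicate 3. Lipocalin 2 (Lcn2), a siderophore-binding protein made by stressed hepatocytes and by neutrophils, had the highest log2 fold change of the protein-coding genes called with a symbol, with a mean of at least 20 TPM in UTOpiA livers and no overlap between groups. Its level was 6310, 5694 and 5359 TPM in the UTOpiA livers against 2.95, 5.03 and 3.52 TPM in the normal livers (log2 fold change 10.25 ± 1.06 (SE), adjusted p = 0.000279). The 3 UTOpiA livers were close to each other and far from normal. The metallothioneins, small zinc-binding proteins, rose as well, Mt2A at 386, 1486 and 4187 TPM against 1.31, 2.46 and 6.38 TPM (log2 fold change 9.04 ± 1.17 (SE), adjusted p = 0.000741) and Mt1 at 200.1, 292 and 958 TPM against 3.21, 4.54 and 11.3 TPM (log2 fold change 6.07 ± 0.94 (SE), adjusted p = 0.00167). Both varied widely among UTOpiA livers, with replicate 3 highest, yet the lowest of the 3 was still far above normal. The LPS-binding protein Lbp, which hands LPS to its receptor, stood at 766, 1031 and 892 TPM against 29.9, 16.6 and 27.9 TPM (log2 fold change 4.86 ± 0.36 (SE), adjusted p = 7.02e-05).

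Hepcidin (Hamp), the hormone that lowers iron export and a positive acute-phase gene, was the list's only gene called lower. It stood at 340.5, 827 and 146 TPM in the UTOpiA livers against 642, 1086 and 1165 TPM in the normal livers, and UTOpiA replicate 2 overlapped the normal range (log2 fold change -1.58 ± 0.47 (SE), adjusted p = 0.0257). The call was lost without UTOpiA replicate 1 and without normal replicates 2 or 3, with library totals alone (adjusted p = 0.146) and with limma on log2 TPM (adjusted p = 0.0839 with 1 added). C3, the central complement component, stood at 5188, 3280 and 4896 TPM against 3947, 2753 and 3320 TPM and was not called (log2 fold change 0.15 ± 0.40 (SE), adjusted p = 0.791).

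Complement genes were called higher in 13 of 32 and lower in 1, with a median of 0.73. The largest rise was that of C7, a part of the membrane attack complex, at 67.9, 220.4 and 56.2 TPM against 1.33, 2.6 and 1.69 TPM (log2 fold change 5.51 ± 0.49 (SE), adjusted p = 0.000138). C9, which completes that complex, was the most abundant riser at 2881, 2224 and 3233 TPM against 875, 722 and 822 TPM (log2 fold change 1.52 ± 0.36 (SE), adjusted p = 0.0088). C8g, a small chain of the same complex, fell (log2 fold change -1.61 ± 0.38 (SE), adjusted p = 0.00991). A further 8 members were near normal.

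Among 43 hepatocyte genes for plasma carriers, apolipoproteins and clotting factors, 6 were called lower and 3 higher, and the median was -0.44. The 6 were Serpina6, Apoa2, Alb, Ttr, Apoc2 and Apom. Apoa2, an apolipoprotein of high-density lipoprotein, stood at 874, 206 and 359.8 TPM against 4228, 2895 and 2497 TPM (log2 fold change -3.03 ± 0.73 (SE), adjusted p = 0.0114). Serpina6, the corticosteroid-binding globulin, stood at 104, 6.69 and 17.6 TPM against 534, 641 and 486 TPM (log2 fold change -4.01 ± 1.19 (SE), adjusted p = 0.0273), a call lost without any library except UTOpiA replicate 1 (adjusted p up to 0.0822). The 3 called higher were Kng1, the thyroxine-binding globulin Serpina7 (log2 fold change 3.50 ± 0.55 (SE), adjusted p = 0.00177) and the triglyceride-regulating Apoa5, whose fold was just over the threshold (log2 fold change 1.01 ± 0.31 (SE), adjusted p = 0.0289). The Apoa5 call was lost without any library except UTOpiA replicate 1 (adjusted p up to 0.0954). Transferrin (Tf), the plasma iron carrier, was not called at 21720, 14230 and 19860 TPM against 23860, 20720 and 24560 TPM (log2 fold change -0.58 ± 0.44 (SE), adjusted p = 0.322). A further 9 members, among them the clotting factors F9, F10 and F11 and the apolipoprotein Apob, were near normal.

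Of 41 genes for the synthesis of fatty acids and cholesterol, 17 were called lower and 0 higher, and the median was -1.04. Enzymes that make fatty acids from glucose were among them. Stearoyl-CoA desaturase (Scd), which makes oleate, stood at 49.2, 10.2 and 45.3 TPM in the UTOpiA livers against 3813, 8119 and 5807 TPM in the normal livers (log2 fold change -7.61 ± 1.87 (SE), adjusted p = 0.0126), and it missed the threshold only without UTOpiA replicate 2 (adjusted p = 0.0554). Acly and Fasn, which supply acetyl-CoA and build palmitate, had log2 fold changes of -4.33 ± 0.46 (SE, adjusted p = 0.00025) and -5.05 ± 0.67 (SE, adjusted p = 0.000659). Malic enzyme Me1, a source of NADPH, stood at 15.2, 12.2 and 7.95 TPM against 233, 575 and 309.8 TPM (log2 fold change -5.32 ± 0.40 (SE), adjusted p = 7.02e-05).

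Srebf1, the transcription factor that drives it, stood at 57.3, 23 and 33.3 TPM against 348, 412 and 411 TPM (log2 fold change -3.65 ± 0.66 (SE), adjusted p = 0.00299). Pnpla3, a lipid droplet acyl hydrolase, was among the most abundant transcripts of normal liver and almost absent from UTOpiA livers. It stood at 4.15, 0.944 and 0.371 TPM in the UTOpiA livers against 1562, 2189 and 2079 TPM in the normal livers (log2 fold change -10.42 ± 1.96 (SE), adjusted p = 0.00392). Its relative Pnpla5 had 0 counts in all 3 UTOpiA livers against 85.2, 88.3 and 108 TPM in normal livers, at least 754-fold lower when the UTOpiA livers are set to 3 counts each (adjusted p = 0.00144). Fads2, a desaturase of polyunsaturated fatty acids, was at 281, 48.5 and 27.3 TPM against 3570, 3177 and 3327 TPM (log2 fold change -5.17 ± 1.65 (SE), adjusted p = 0.0359), a call lost without any library except UTOpiA replicate 1 (adjusted p up to 0.128). In the sterol branch Pmvk, Fdps and Nsdhl were called lower. Srebf2, its regulator, was near normal, and Insig1, which retains the SREBP proteins in the endoplasmic reticulum, stood at 407, 317 and 172 TPM against 483, 544 and 725 TPM and was called only with the 6 libraries alone (log2 fold change -1.32 ± 0.86 (SE), adjusted p = 0.248, against 0.00949 there).

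Carbohydrate enzymes were also away from normal. Of 26 genes for gluconeogenesis and glycogen, 11 were called lower and 1 higher (median -0.98). Pyruvate kinase Pklr, the last step of liver glycolysis, stood at 12.3, 8.55 and 11.6 TPM in the UTOpiA livers against 211, 299 and 272 TPM in the normal livers, a separation seen in every liver (log2 fold change -4.87 ± 0.38 (SE), adjusted p = 7.81e-05). Tkfc, which phosphorylates glyceraldehyde from fructose, fell by 3.08 on the log2 scale (SE 0.37, adjusted p = 0.000392). The only gene called higher was Pck1, the gluconeogenic phosphoenolpyruvate carboxykinase, at 1673, 684 and 532 TPM against 57.2, 72.6 and 152 TPM (log2 fold change 3.02 ± 0.55 (SE), adjusted p = 0.00287). Fbp1, a further gluconeogenic enzyme, was not called (log2 fold change -0.42 ± 0.28 (SE), adjusted p = 0.25).

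Of 19 glycolytic isozymes and glucose transporters that other cells use, 11 were called higher and 0 lower (median 1.49). Ldhb, Pfkp and Pkm, isozymes of lactate dehydrogenase, phosphofructokinase and pyruvate kinase that hepatocytes hold at low levels, led with log2 fold changes of 3.77 ± 0.40, 3.76 ± 0.55 and 3.62 ± 0.50 (SE, adjusted p = 0.000274, 0.00112 and 0.00092). Pkm stood at 67.1, 133 and 42.8 TPM against 5.55, 5.99 and 3.47 TPM, with UTOpiA replicate 2 highest. Markers of duct, stromal and blood cells were higher in the same livers (given below), and their part in this rise was not tested. Without UTOpiA replicate 3, 3 members were also called lower.

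Fatty acid oxidation and ketone body synthesis had 14 of 42 genes called lower and 1 higher (median -0.73). The enzymes that activate long-chain fatty acids were among the lowest, Acsl1 at 352, 133 and 263 TPM in the UTOpiA livers against 1395, 1510 and 1363 TPM in the normal livers (log2 fold change -2.77 ± 0.42 (SE), adjusted p = 0.00121) and Acsl5 at 138, 137 and 124 TPM against 609.5, 806 and 659 TPM (log2 fold change -2.68 ± 0.28 (SE), adjusted p = 0.000235). Bdh1, which makes the ketone body 3-hydroxybutyrate, was at 69.2, 23.6 and 54.1 TPM against 279.7, 264 and 326 TPM (log2 fold change -2.82 ± 0.46 (SE), adjusted p = 0.00189). Each of these was lower in every UTOpiA liver. Ppara, the nuclear receptor that drives this programme, was called lower (log2 fold change -1.29 ± 0.37 (SE), adjusted p = 0.0219). Without UTOpiA replicate 2, 9 members were called lower, with library totals alone 6 (median -0.40) and with limma on log2 TPM 7 to 9. Slc22a5, the carnitine transporter, was the gene called higher (log2 fold change 1.12 ± 0.39 (SE), adjusted p = 0.0479) and lost the call when any single library was left out (adjusted p up to 0.145).

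Of 73 nuclear genes of the respiratory chain and ATP synthase, 14 were called lower and 0 higher with a median of -0.61, and 35 (47.9%) were near normal, beside 40.1% of all genes. Among the largest falls were core subunits. Ndufs1 of complex I, Sdha of complex II and Atp5f1a of ATP synthase had log2 fold changes of -1.59 ± 0.18, -1.49 ± 0.21 and -1.45 ± 0.20 (SE, adjusted p = 0.000294, 0.000821 and 0.00079). Ndufs1 stood at 69.8, 82.3 and 64.2 TPM against 162, 193 and 166 TPM. Without UTOpiA replicate 2, 7 members were called, with upper-quartile scaling 9 and with library totals alone or limma on log2 TPM 4. Several subunits encoded in the mitochondrial genome were near normal. Mt-co1, the catalytic subunit of cytochrome oxidase, stood at 29880, 27630 and 33500 TPM against 26620, 28060 and 26810 TPM, with a 95% interval of the log2 fold change of -0.85 to 0.62. Mt-atp6, Mt-co3, Mt-nd1, Mt-nd2 and Mt-nd3 lay inside 2-fold by the same criterion and are, with Mt-co1, the elongation factor Eef1a1 and a transcript listed as AY172581.19, the 8 most abundant near-normal genes.

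Enzymes that break down amino acids were called lower in 23 of 49 cases and higher in 0 (median -0.99). The falls covered several pathways. Aadat and Kmo act on kynurenine from tryptophan, Uroc1 and Hal on histidine, Gstz1 and Fah on tyrosine, and Bckdha, Bckdhb and Dbt are parts of the complex that oxidises branched-chain keto acids. Aadat stood at 80.9, 52.5 and 54.4 TPM in the UTOpiA livers against 244, 266 and 264 TPM in the normal livers (log2 fold change -2.34 ± 0.41 (SE), adjusted p = 0.00253), and Gstz1 at 169, 83.9 and 104 TPM against 426, 432 and 468 TPM (log2 fold change -2.18 ± 0.42 (SE), adjusted p = 0.00386). Uroc1 was at 70.3, 25.5 and 42.5 TPM against 193, 205 and 172 TPM (log2 fold change -2.32 ± 0.53 (SE), adjusted p = 0.00911). In each, UTOpiA replicate 2 was lowest, and without this liver the count of members called lower was 15. It was 12 with library totals alone (median -0.67) and 14 with limma on unfiltered log2 TPM. Bhmt, the most abundant member, which remethylates homocysteine, was not called at 2544, 2022 and 1675 TPM against 3673, 2025 and 2507 TPM (log2 fold change -0.71 ± 0.37 (SE), adjusted p = 0.154).

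The urea cycle and ammonia genes had 8 of 20 called lower and 1 higher (median -0.81). Cps1, which fixes ammonia in the first step, stood at 1068, 1177 and 1236 TPM in the UTOpiA livers against 2455, 2447 and 2097 TPM in the normal livers (log2 fold change -1.30 ± 0.32 (SE), adjusted p = 0.011). Its UTOpiA values were close to each other and all below normal. Otc, the second step, was at 202, 56.5 and 110.0 TPM against 619, 675 and 628 TPM (log2 fold change -2.65 ± 0.89 (SE), adjusted p = 0.0423), and its call was lost when any single library was left out (adjusted p up to 0.132) or with library totals alone (adjusted p = 0.0584). Ass1, the third enzyme, was called lower (log2 fold change -1.13 ± 0.36 (SE), adjusted p = 0.0331), and Asl, the fourth, was near normal (log2 fold change 0.36 ± 0.26 (SE), adjusted p = 0.299). Glul, which makes glutamine from ammonia, was near normal at 317, 378 and 165 TPM against 188, 152 and 162 TPM. Without UTOpiA replicate 2, 4 members were called lower, with limma on log2 TPM 4 to 5 and with library totals alone 2, Cps1 being then at a log2 fold change of -0.96. The gene called higher was the aspartate transaminase Got1 (log2 fold change 1.14 ± 0.37 (SE), adjusted p = 0.035), a call lost without UTOpiA replicate 3 or any normal liver (adjusted p up to 0.118).

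Of 31 drug-metabolising cytochrome P450 genes and their reductase, 9 were called lower and 1 higher (median -1.10). Cyp2c11, the male-specific steroid hydroxylase of rat liver, was nearly lost. Its level was 1.26, 0.128 and 0.702 TPM in the UTOpiA livers against 2107, 2227 and 1990 TPM in the normal livers (log2 fold change -11.84 ± 1.39 (SE), adjusted p = 0.000504). Cyp2b2, inducible by phenobarbital, stood at 3, 2.23 and 3.39 TPM against 112, 87.1 and 79.6 TPM (log2 fold change -5.29 ± 0.50 (SE), adjusted p = 0.000193). Cyp3a62 was the gene called higher, at 37.3, 31.4 and 26.5 TPM against 6.14, 2.75 and 4.45 TPM (log2 fold change 2.52 ± 0.34 (SE), adjusted p = 0.000688). The count called higher was 2 without UTOpiA replicate 2, with library totals alone or with DESeq2, and 3 with the 6 libraries alone or limma on log2(TPM + 0.1). Counts called lower were 4 to 5 without UTOpiA replicate 2 or any normal liver, and 5 with library totals alone. The most abundant member, Cyp2c22, stood at 2931, 1205 and 1329 TPM against 1376, 1901 and 2232 TPM (log2 fold change -0.32 ± 0.81 (SE), adjusted p = 0.779), with values overlapping. Some P450 genes have near-identical copies, between which reads could be split.

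Conjugation enzymes were called lower in 12 of 34 and higher in 1 (median -1.0). The alpha-class glutathione transferases Gsta3, Gsta5 and Gsta2 fell most, with log2 fold changes of -5.36 ± 0.73, -4.79 ± 1.20 and -4.70 ± 0.64 (SE, adjusted p = 0.000946, 0.0136 and 0.000952). Gsta3 stood at 7.8, 3.64 and 1.52 TPM against 134, 152 and 129.5 TPM, below normal in every UTOpiA liver. The oestrogen sulfotransferase Sult1e1 was at 333, 76.6 and 524 TPM against 2293, 2347 and 2915 TPM (log2 fold change -3.18 ± 1.02 (SE), adjusted p = 0.0357). Among the fits without 1 library, only that without UTOpiA replicate 3 kept the Sult1e1 call (adjusted p up to 0.0947 in the others). Gstp1, a transferase low in hepatocytes and high in ducts, was the gene called higher (log2 fold change 1.52 ± 0.45 (SE), adjusted p = 0.0254). This call was lost without any library except UTOpiA replicate 3 (adjusted p up to 0.089). Ca3, a cytosolic carbonic anhydrase outside the lists, stood at 0.3, 0.273 and 0.889 TPM in the UTOpiA livers against 1614, 1642 and 1272 TPM in the normal livers (log2 fold change -11.82 ± 1.07 (SE), adjusted p = 0.00016). The sulfotransferase Sult4a1 was at least 273-fold lower with at most 3 counts in each UTOpiA liver (adjusted p = 7.81e-05).

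Of 19 genes of the growth hormone receptor and IGF axis, 4 (21.1%) were called higher, near the 18.2% of all genes, and 3 were called lower. The median was -0.16, and 0.17 with library totals alone and 0.35 to 0.41 with limma on log2 TPM. The receptor Ghr fell, at 180.2, 74.5 and 132 TPM against 336, 313 and 324 TPM (log2 fold change -1.60 ± 0.38 (SE), adjusted p = 0.00961). The major urinary proteins Mup4 and Mup5, of a family that growth hormone controls in male rats, fell further, Mup4 standing at 1.77, 0.497 and 7.09 TPM against 68.1, 76.8 and 78.8 TPM (log2 fold change -4.75 ± 0.78 (SE), adjusted p = 0.0021). Mup5 had the widest spread among UTOpiA livers of the called genes with a mean of at least 20 TPM, at 29.6, 0.689 and 69.5 TPM against 768, 853 and 1112 TPM (log2 fold change -4.89 ± 1.32 (SE), adjusted p = 0.0184), and lost its call without UTOpiA replicate 1 (adjusted p = 0.0616). Igf1 itself was not called (log2 fold change -0.63 ± 0.36 (SE), adjusted p = 0.194). Igfbp1, which binds IGF1 and responds to fasting and stress, rose to 322, 805 and 268 TPM from 1.72, 8.78 and 6.08 TPM (log2 fold change 5.99 ± 0.70 (SE), adjusted p = 0.000425).

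Of 17 genes of bile acid synthesis 2 were called lower (11.8%, beside 6.81% of all genes) and 1 higher. Cyp7a1, the rate-limiting enzyme of the classical pathway, stood at 547, 327 and 200.0 TPM in the UTOpiA livers against 161, 397 and 186 TPM in the normal livers, and the groups overlapped (log2 fold change 0.19 ± 0.81 (SE), adjusted p = 0.872). Cyp39a1 (log2 fold change -1.73 ± 0.37 (SE), adjusted p = 0.00619) and Acox2 (log2 fold change -1.05 ± 0.31 (SE), adjusted p = 0.0243) were called lower and Cyp7b1 of the oxysterol pathway higher, at 13.4, 26.9 and 11.3 TPM against 4.19, 3.15 and 3.19 TPM (log2 fold change 1.92 ± 0.28 (SE), adjusted p = 0.000982). The Acox2 call was lost without UTOpiA replicates 1 or 2, without normal replicates 1 or 3, with limma on log2 TPM, and with library totals alone or upper-quartile scaling. The median was -0.61, and 0 members were near normal. It was -0.39 without UTOpiA replicate 2, -0.27 with library totals alone and -0.32 with limma on log2 TPM. With library totals alone or limma on log2 TPM, 2 members were called higher and 1 lower.

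Among 17 transporters of bile acids, bilirubin and phospholipid with their nuclear receptors, 5 were called lower and 2 higher (median -0.87). The pair called higher was the phospholipid exporter Abcb4, at 72.7, 57 and 34.8 TPM against 10.1, 8.51 and 9.33 TPM (log2 fold change 2.21 ± 0.24 (SE), adjusted p = 0.00029), and the basolateral exporter Abcc3, at 23.9, 23 and 6.63 TPM against 4.09, 2.04 and 3.22 TPM (log2 fold change 2.12 ± 0.48 (SE), adjusted p = 0.00894). Uptake carriers Slco1a1 (log2 fold change -2.12 ± 0.53 (SE), adjusted p = 0.0128) and Slco1a4 (log2 fold change -3.23 ± 1.03 (SE), adjusted p = 0.0355) fell. The bile acid uptake carrier Slc10a1 lay below normal in each UTOpiA liver, at 389.8, 141 and 219 TPM against 528, 469 and 502 TPM, without reaching the threshold (log2 fold change -1.28 ± 0.48 (SE), adjusted p = 0.062), but was called lower with DESeq2 (adjusted p = 0.0156), with the 6 libraries alone (adjusted p = 0.0284) and without UTOpiA replicate 1 (adjusted p = 0.0394). The bile salt export pump Abcb11 stood at 246, 164 and 133 TPM against 222, 322 and 252 TPM (log2 fold change -0.87 ± 0.40 (SE), adjusted p = 0.111). With library totals alone 2 members were called lower and with the 6 libraries alone 8. Without UTOpiA replicate 2 only 1 member was called lower, and 2 to 3 without UTOpiA replicate 3 or normal replicates 2 or 3, the Slco1a1 call being lost without UTOpiA replicate 2 (adjusted p = 0.055) and the Slco1a4 call without any library except UTOpiA replicate 1 (adjusted p up to 0.13) or with library totals alone.

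Of 22 hepatocyte transcription factors, 1 was called lower and 0 higher, the median was -0.43 and 11 were near normal. Hnf4a, the nuclear receptor that maintains hepatocyte identity, stood at 131, 106 and 138 TPM in the UTOpiA livers against 166, 179.5 and 172 TPM in the normal livers. All 3 UTOpiA livers lay below the normal livers, by a log2 fold change of -0.74 ± 0.27 (SE) that did not pass the test (adjusted p = 0.0524, 95% interval -1.34 to -0.14). Foxa2 was not called (log2 fold change -0.85 ± 0.34 (SE), adjusted p = 0.0757), except without normal replicate 3 (adjusted p = 0.034). Atf5 was the factor called lower, at 251, 270.2 and 361 TPM against 761, 861 and 683 TPM (log2 fold change -1.65 ± 0.37 (SE), adjusted p = 0.0072). The fetal hepatocyte gene Afp was low in both groups, at 11.7, 5.56 and 9.87 TPM against 12.8, 16.8 and 10.3 TPM (log2 fold change -0.82 ± 0.33 (SE), adjusted p = 0.0744). Without UTOpiA replicate 3, 4 factors were called lower.

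**Figure D3:**
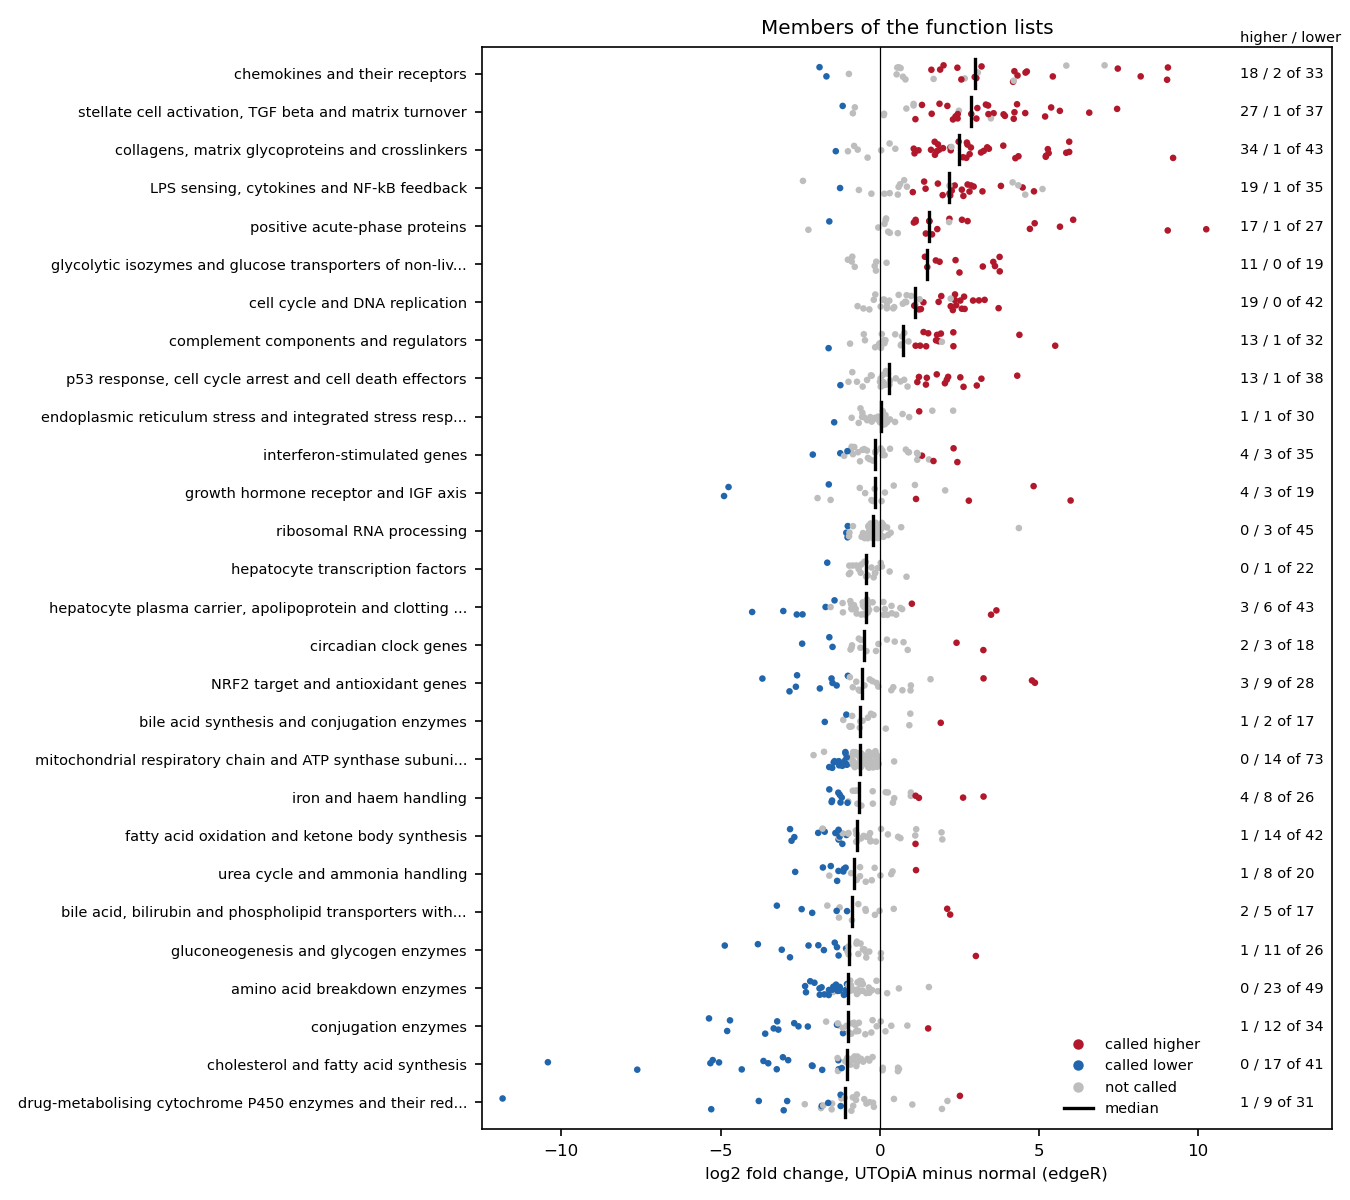
Log2 fold change of UTOpiA minus normal (x axis) for every tested member of 28 function lists (y axis, sorted by median), with members called higher in red, called lower in blue and not called in grey, black ticks at the medians and the counts called at the right. Fitted medians run from 2.98 for chemokines and their receptors (2.01 with genes at the floor set to their bounds, below the 2.48 of the stellate cell list) to -1.10 for drug-metabolising P450 enzymes, and most members of the ribosomal RNA processing, endoplasmic reticulum stress and hepatocyte transcription factor lists sit within 1 of 0.

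Of 30 genes of endoplasmic reticulum stress, 17 were near normal, 1 was called higher and 1 lower (median 0.05). The pro-death factor Ddit3 was the gene called higher, at 52.2, 42.5 and 23.5 TPM against 10.8, 14.9 and 13.6 TPM (log2 fold change 1.24 ± 0.31 (SE), adjusted p = 0.0122), a call lost without UTOpiA replicate 1, when the fold fell under 2. Asparagine synthetase Asns was called lower (log2 fold change -1.43 ± 0.25 (SE), adjusted p = 0.00212), and was just under 2-fold with limma on log2(TPM + 1). The chaperone Calr was near normal at 1241, 1181 and 1330 TPM against 1214, 1106 and 1058 TPM. Of 45 genes of ribosomal RNA processing 37 were near normal (median -0.20, or 0.16 with library totals alone and 0.09 to 0.11 with limma on log2 TPM) and 3 (6.67%, near the 6.81% of all genes) were called lower, Bop1, Rrs1 and Rrp12, each close to 2-fold. The count was 0 without UTOpiA replicate 1, 5 without UTOpiA replicate 2 and 0 with upper-quartile scaling, library totals alone or limma on log2 TPM.

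Of 28 antioxidant genes, 9 were called lower and 3 (10.7%) higher, the latter beside 18.2% of all genes (median -0.55). With library totals alone 6 were called higher. Catalase was among those called lower. The glutathione synthesis enzyme Gclc stood at 26.4, 24.5 and 21.8 TPM against 127, 161 and 131 TPM (log2 fold change -2.83 ± 0.33 (SE), adjusted p = 0.000365). The 3 called higher were haem oxygenase Hmox1, at 169.8, 152 and 447 TPM against 25.9, 20.5 and 24.3 TPM (log2 fold change 3.26 ± 0.53 (SE), adjusted p = 0.0019), and the glutathione peroxidases Gpx2 (log2 fold change 4.78 ± 0.63 (SE), adjusted p = 0.000807) and Gpx3 (log2 fold change 4.87 ± 0.29 (SE), adjusted p = 5.23e-05). Nfe2l2, the transcription factor NRF2, was near normal.

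Iron and haem genes had 8 of 26 called lower and 4 (15.4%) higher, the latter near the 18.2% of all genes (median -0.64). Apart from Hamp, the fallen genes included the haem synthesis enzymes Ppox (log2 fold change -1.5 ± 0.17 (SE), adjusted p = 0.000291), Cpox, Alad and Alas1 and the iron sensor Hfe (log2 fold change -1.51 ± 0.27 (SE), adjusted p = 0.00247). Besides Hmox1, the iron importer Slc11a2, ceruloplasmin (Cp) and Heph rose. Ceruloplasmin stood at 2813, 2555 and 3136 TPM against 1279, 844 and 1088 TPM (log2 fold change 1.13 ± 0.38 (SE), adjusted p = 0.0397), and its call was lost without any library except UTOpiA replicate 2. With library totals alone 6 members were called higher and 2 lower, and with limma on log2 TPM 3 were called lower. Of 18 clock genes 3 (16.7%, beside 6.81% of all genes) were called lower, Hlf (log2 fold change -2.44 ± 0.47 (SE), adjusted p = 0.00386), Cry1 and Per2. Called higher were 2 (11.1%, beside 18.2% of all genes), Npas2 and Bhlhe41 (1 without UTOpiA replicate 1 or normal replicates 1 or 2). The output gene Dbp was not called (log2 fold change -0.04 ± 0.59 (SE), adjusted p = 0.964).

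Inflammatory signalling was still raised at 24 h after LPS. Of 35 genes of LPS sensing, cytokines and NF-kB feedback, 19 were called higher and 1 lower, and the median was 2.19, or 1.48 when the 5 genes at the detection floor were set to their bounds. Relb, a subunit of NF-kB, stood at 21.1, 25.4 and 10.5 TPM in the UTOpiA livers against 0.961, 0.603 and 1.55 TPM in the normal livers (log2 fold change 3.80 ± 0.57 (SE), adjusted p = 0.00134). Osmr, the receptor of oncostatin M, rose to 35, 70.8 and 34.1 TPM from 0.518, 1.06 and 3.21 TPM (log2 fold change 4.49 ± 0.60 (SE), adjusted p = 0.000838). The interleukin 1 decoy receptor Il1r2 stood at 2.56, 11.1 and 3.17 TPM against 0.434, 0 and 0 TPM (log2 fold change 4.84 ± 1.02 (SE), adjusted p = 0.00621). Risen members included inhibitors of the pathway as well, such as Nfkbia (log2 fold change 1.82 ± 0.61 (SE), adjusted p = 0.0418) and Tnfaip3 (log2 fold change 2.82 ± 0.83 (SE), adjusted p = 0.0267). The gene called lower was Il1rap, a co-receptor of interleukin 1 (log2 fold change -1.25 ± 0.30 (SE), adjusted p = 0.011), a call lost with limma on log2 TPM (adjusted p from 0.0521 to 0.0851) and, at a fold under 2, with library totals alone. Without UTOpiA replicate 2 or without normal replicate 3, 12 members were called higher.

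The cytokines themselves were low and uneven. Il1b stood at 16.6, 43.1 and 4.9 TPM in the UTOpiA livers against 1.79, 2.27 and 2 TPM in the normal livers, with UTOpiA replicate 2 highest (log2 fold change 2.95 ± 0.86 (SE), adjusted p = 0.0249), and lost its call without UTOpiA replicate 2 or any normal liver (adjusted p up to 0.106). Il6 was at 0.456, 0.726 and 0.208 TPM in the UTOpiA livers and at 0 in the normal livers and was not called (adjusted p = 0.447). The empty livers, which share the estimate of the spread, were at 1.15, 80.3 and 2.14 TPM. Il10 was at 1.57, 2.86 and 0.477 TPM against 0.366, 0 and 0 TPM (adjusted p = 0.0392), with at most 3 counts in each normal liver and a fold of at least 2.29, and lost its call without UTOpiA replicates 1 or 2 or normal replicates 2 or 3. Il1a lay below normal in each UTOpiA liver (2.81, 4.18 and 1.19 TPM against 9.23, 12.3 and 11.9 TPM) without passing the test (log2 fold change -2.41 ± 1.06 (SE), adjusted p = 0.103), but was called lower with DESeq2 (adjusted p = 0.0189) and with the 6 libraries alone (adjusted p = 0.00138). Tnf and Ifng had too few counts to be tested, with at most 3 counts in any of the 6 livers, as had Mpo.

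Chemokines and their receptors had 18 of 33 called higher and 2 lower, with a median of 2.98, or 2.01 with the 11 genes at the floor set to their bounds. Cxcl6, which attracts neutrophils, stood at 21.7, 71 and 5.88 TPM in the UTOpiA livers against 0, 0.217 and 0 TPM in the normal livers, at least 106-fold higher with the normal livers set to 3 counts (adjusted p = 0.000944). Cxcl1 stood at 16.2, 23.2 and 22 TPM against 0.945, 0.889 and 0.877 TPM (log2 fold change 4.19 ± 1.34 (SE), adjusted p = 0.0365). Ccl20, which attracts lymphocytes and dendritic cells, was listed at 0 in normal livers and was at 7.86, 16.2 and 5.51 TPM, at least 16.4-fold higher (adjusted p = 0.00476). The pair called lower was Cxcl12, a homeostatic chemokine of stromal and endothelial cells (log2 fold change -1.89 ± 0.39 (SE), adjusted p = 0.00495), and the interferon-inducible Cxcl11 (log2 fold change -1.67 ± 0.28 (SE), adjusted p = 0.00171).

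Interferon-stimulated genes were not raised as a group. Of 35, 4 (11.4%) were called higher, beside 18.2% of all genes, and 3 (8.57%) lower, near the 6.81% of all genes. The median was -0.14 (0.25 with library totals alone and 0.07 to 0.14 with limma on log2 TPM, where 1 was called lower). Higher were Gbp4, Gbp5, Ifi47 and Oasl2, of which the GTPase Ifi47 stood at 93, 75.2 and 41.2 TPM against 12.8, 20.3 and 17.8 TPM (log2 fold change 1.69 ± 0.27 (SE), adjusted p = 0.00138). Lower were Oas1a (log2 fold change -2.10 ± 0.51 (SE), adjusted p = 0.0115), the RNA sensor Ddx58 (log2 fold change -1.24 ± 0.13 (SE), adjusted p = 0.00025) and Bst2 (log2 fold change -1.01 ± 0.32 (SE), adjusted p = 0.0307), of which Ddx58 and Bst2 were under 2-fold with library totals alone and with limma on log2 TPM. The Bst2 call was lost without UTOpiA replicates 2 or 3 or normal replicates 2 or 3 (adjusted p up to 0.0852). The Gbp5 call was lost without any library except UTOpiA replicate 3 (adjusted p up to 0.101). Without UTOpiA replicate 1, 5 members were called lower.

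Fibrosis genes were raised. Of 43 collagens, matrix glycoproteins and crosslinkers, 34 were called higher and 1 lower (median 2.48, or 2.25 with bounds). The chain Col1a1 of type I collagen, the main collagen of scar, stood at 46.4, 65.1 and 34.7 TPM in the UTOpiA livers against 1.97, 3.29 and 2.51 TPM in the normal livers (log2 fold change 3.88 ± 0.25 (SE), adjusted p = 6.22e-05), and Col3a1 at 413, 483 and 292 TPM against 88.9, 86.8 and 81.3 TPM (log2 fold change 1.86 ± 0.28 (SE), adjusted p = 0.00109). The collagen crosslinker Lox rose to 14.8, 31.1 and 12.5 TPM from 0.13, 0.269 and 0.314 TPM (log2 fold change 5.95 ± 0.68 (SE), adjusted p = 0.000459). Periostin (Postn), a matricellular protein of activated fibroblasts, was at 7.04, 26.3 and 4.97 TPM with at most 3 counts in each normal liver, at least 84-fold higher (adjusted p = 0.000268). Every UTOpiA liver was above every normal liver in each of these. Ecm1, a matrix protein made by hepatocytes, was the gene called lower (log2 fold change -1.38 ± 0.27 (SE), adjusted p = 0.00358).

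Genes of stellate cell activation, TGF beta and matrix turnover were called higher in 27 of 37 and lower in 1 (median 2.87, or 2.48 with bounds). Timp1, which inhibits collagenases, stood at 234, 368 and 169.5 TPM in the UTOpiA livers against 5.07, 6.52 and 4.71 TPM in the normal livers (log2 fold change 5.19 ± 0.65 (SE), adjusted p = 0.000615). The macrophage elastase Mmp12 stood at 9.97, 32.3 and 5.09 TPM against 0.419, 0.131 and 0.13 TPM (log2 fold change 5.66 ± 0.71 (SE), adjusted p = 0.000615). The ligand Tgfb1 rose (log2 fold change 1.63 ± 0.23 (SE), adjusted p = 0.000814), while its receptor Tgfbr2 was near normal at 64.6, 84 and 40.7 TPM against 46.7, 46.5 and 41.7 TPM. Inhba, the activin subunit, was the gene called lower (log2 fold change -1.16 ± 0.31 (SE), adjusted p = 0.0162), without a call when UTOpiA replicate 2 or normal replicate 2 was left out (adjusted p up to 0.0613), with library totals alone or with limma on log2 TPM.

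Cell cycle genes were called higher in 19 of 42 and lower in 0 (median 1.10). Mki67, present in all cycling cells, stood at 7.87, 4.87 and 2.93 TPM in the UTOpiA livers against 0.696, 0.441 and 1.25 TPM in the normal livers (log2 fold change 2.36 ± 0.49 (SE), adjusted p = 0.00558). Top2a, needed to separate chromosomes, was at 8.52, 4.67 and 3.53 TPM against 0.604, 0.505 and 1.39 TPM (log2 fold change 2.40 ± 0.61 (SE), adjusted p = 0.0138), and the mitotic kinase Cdk1 at 11.7, 6.84 and 5.84 TPM against 1.33, 0.75 and 3.29 TPM (log2 fold change 1.85 ± 0.51 (SE), adjusted p = 0.0183). Normal replicate 3 held the highest normal values of all of these, and levels were low in both groups. The list median of that liver lay 0.80 above the other normal livers, while UTOpiA replicate 3 lay 0.84 above the mean normal liver. The list summed to 215 TPM in normal replicate 3 and to 356, 340 and 173 TPM in the UTOpiA livers. Pcna, which acts in DNA replication, was near normal at 48, 62.3 and 31.8 TPM against 27.6, 28.4 and 38.8 TPM, as were Mcm2, Mcm4 and Mcm7. The Top2a call was lost without normal replicates 1 or 2 (adjusted p up to 0.0527) and the Cdk1 call without UTOpiA replicate 1 or normal replicates 1 or 2 (adjusted p up to 0.0686). The count called higher was 10 without UTOpiA replicate 1 or normal replicate 1 and 9 without normal replicate 2, and 11 to 12 with limma on log2(TPM + 1). The cells in cycle cannot be named from bulk RNA.

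Of 38 genes of the p53 response, cell cycle arrest and cell death, 13 were called higher and 1 lower, 15 were near normal and the median was 0.28. Cdkn1a, which encodes the cell cycle inhibitor p21, stood at 11.6, 18 and 23.5 TPM in the UTOpiA livers against 3.2, 1.51 and 2.44 TPM in the normal livers, higher in all 3 UTOpiA livers (log2 fold change 2.63 ± 0.46 (SE), adjusted p = 0.00254). Btg2, an antiproliferative p53 target, was at 58.4, 61.6 and 84.6 TPM against 6, 5.74 and 8.88 TPM (log2 fold change 3.05 ± 0.64 (SE), adjusted p = 0.00601), and Gadd45b at 12.4, 20.9 and 11.6 TPM against 0.673, 0.633 and 0.446 TPM (log2 fold change 4.32 ± 1.01 (SE), adjusted p = 0.0105). Other p53 targets, Mdm2, Bax, Ccng1 and Phlda3, were near normal. The kinase Plk2 was the gene called lower (log2 fold change -1.24 ± 0.23 (SE), adjusted p = 0.00277), with a fold under 2 without normal replicate 1, with library totals alone and with limma on log2 TPM.

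Several growth and adhesion factors were also examined because their products had been measured in the study. Hgf, the hepatocyte growth factor, stood at 12.5, 9.18 and 9.06 TPM against 4.29, 4.94 and 3.83 TPM, above normal in each liver but not called (log2 fold change 0.93 ± 0.41 (SE), adjusted p = 0.0989), though it was called higher with library totals alone (adjusted p = 0.0221) and with limma on filtered log2 TPM (adjusted p up to 0.0432), but not with limma on unfiltered values. Vegfa was at 89.1, 89.5 and 91.6 TPM against 73, 77.3 and 70.2 TPM, with an interval of -0.85 to 0.85. E-cadherin (Cdh1) was at 119.5, 146 and 61.5 TPM against 54.1, 44.4 and 48.7 TPM, under the 2-fold threshold (log2 fold change 0.78 ± 0.24 (SE), adjusted p = 0.0274), and over it with library totals alone (adjusted p = 0.0122) and called with limma on filtered log2 TPM (adjusted p up to 0.0298), but not on unfiltered values.

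Markers of cell types were measured beside these functions. Of 17 cholangiocyte and ductular markers 15 were called higher and 0 lower, with a median of 4.76, and their summed TPM was 2410 to 4610 in UTOpiA livers against 498 to 618 in normal livers. Keratin 7 (Krt7), a filament protein of ducts, stood at 18.6, 54.5 and 10.8 TPM in the UTOpiA livers against 0.121, 0.285 and 0.0562 TPM in the normal livers (log2 fold change 7.01 ± 0.76 (SE), adjusted p = 0.000338). The tight junction gene Cldn7 was at 29.9, 33 and 18.3 TPM against 0, 0.194 and 0.383 TPM (log2 fold change 6.69 ± 0.56 (SE), adjusted p = 9.98e-05), and Epcam at 116, 168 and 63.7 TPM against 15.3, 20.5 and 13.5 TPM (log2 fold change 2.44 ± 0.31 (SE), adjusted p = 0.000526). UTOpiA replicate 2 was highest in each of these. Cdh17, Cldn9, Prr15l and Spint1, which are genes of epithelial cells, were among the 12 genes with the largest rise, with Cdh17 at 138, 101 and 88.4 TPM against 0.0699, 0.132 and 0.162 TPM (log2 fold change 9.45 ± 0.47 (SE), adjusted p = 1.81e-05).

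**Figure D4:**
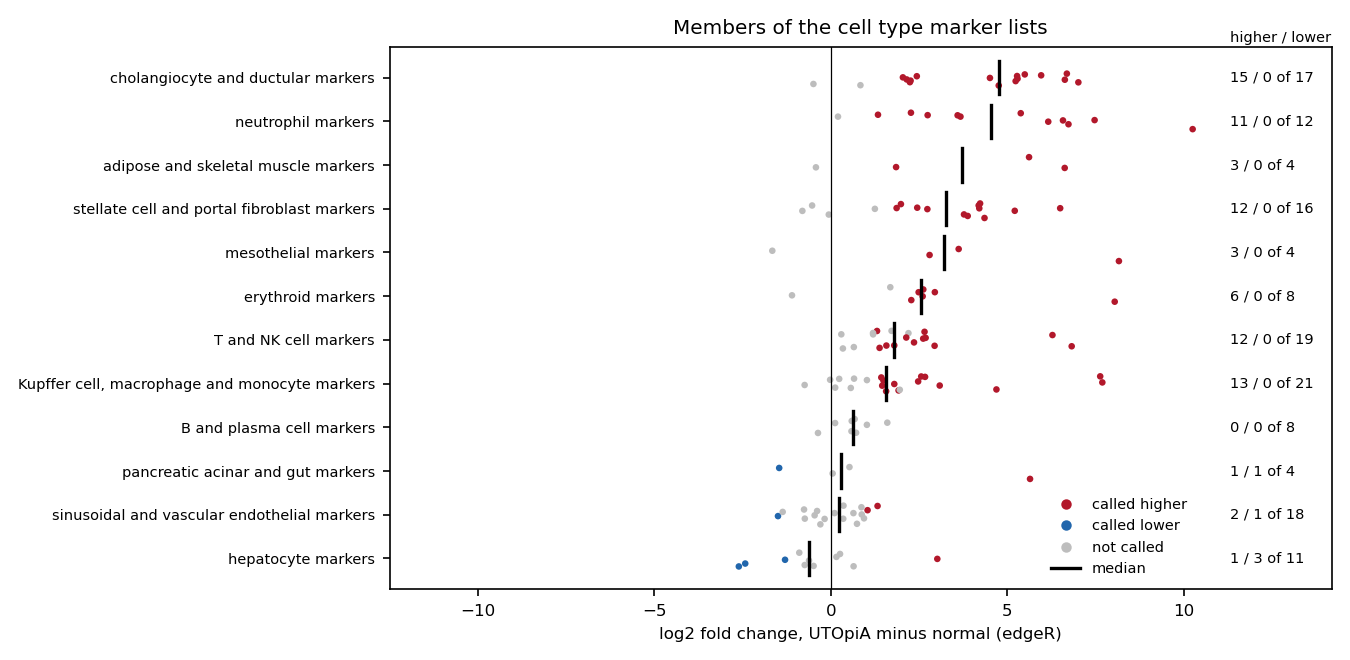
Log2 fold change of UTOpiA minus normal (x axis) for every tested member of 12 cell type marker lists (y axis, sorted by median), coloured by call, with black ticks at the medians and the counts called at the right. Fitted medians run from 4.76 for cholangiocyte markers, next to 4.53 for neutrophil markers, to -0.62 for hepatocyte markers, and those of endothelial and B cell markers are 0.23 and 0.63.

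Stellate cell and portal fibroblast markers were called higher in 12 of 16 (median 3.26, or 3.20 with bounds, summed TPM 627 to 1390 against 127 to 143). Acta2, the smooth muscle actin of myofibroblasts, stood at 87.8, 147 and 45.1 TPM in the UTOpiA livers against 2.69, 7.1 and 1.5 TPM in the normal livers (log2 fold change 4.23 ± 0.61 (SE), adjusted p = 0.00116), and the proteoglycan Dcn at 77.7, 277 and 32.8 TPM against 2.35, 2.84 and 2.31 TPM (log2 fold change 5.21 ± 1.08 (SE), adjusted p = 0.00617). Lrat, which marks the resting, vitamin A-storing stellate cell, was not called, at 13.3, 7.36 and 12.3 TPM against 13.4, 12.7 and 13.7 TPM. Lumican (Lum) was high in UTOpiA replicate 2 alone (0.945, 26.1 and 0.215 TPM against 0.372, 0.292 and 0.23 TPM), and its call (log2 fold change 4.36 ± 1.47 (SE), adjusted p = 0.0439) was lost without that liver or any normal liver (adjusted p up to 0.445).

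Of 20 neutrophil markers 12 had enough counts to be tested, and 11 were called higher (median 4.53, or 3.63 with bounds). Markers near 0 in normal livers could be tested only through their counts in ACLF livers, so this share is partly set by the filter. Leaving out Lcn2, which hepatocytes also make, the other 19 genes summed to 207 to 606 TPM in UTOpiA livers and 15.8 to 19.8 TPM in normal livers. The calprotectin subunits S100a8 and S100a9 stood at 177, 236 and 84.6 TPM against 1.33, 0.312 and 1.85 TPM (log2 fold change 6.73 ± 0.85 (SE), adjusted p = 0.000687) and at 199.7, 257 and 84 TPM against 3.55, 1.78 and 0.44 TPM (log2 fold change 6.16 ± 0.81 (SE), adjusted p = 0.000799). The granule gene Ltf was listed at 0 in all 6 livers, and Elane, Ctsg, Prtn3 and Mpo were at 0 in the 3 normal livers.

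Macrophage and monocyte markers were called higher in 13 of 21 and lower in 0 (median 1.57, summed TPM 1240 to 3910 against 596 to 722). Lysozyme Lyz2 stood at 282, 1043 and 169 TPM in the UTOpiA livers against 17.8, 10.6 and 13.6 TPM in the normal livers, and Gpnmb, a gene of lipid-laden and scar-associated macrophages, at 57.7, 197 and 24.9 TPM against 9.16, 5.05 and 9.46 TPM (log2 fold change 3.09 ± 0.78 (SE), adjusted p = 0.0144). Lyz2 had a log2 fold change of 4.69 ± 0.67 (SE, adjusted p = 0.00106). The Gpnmb call was lost without UTOpiA replicate 2 or normal replicate 2 (adjusted p up to 0.0555). Trem2, a lipid receptor of the same macrophages, was at 2.98, 3.37 and 1.41 TPM and at 0 in normal livers. Clec4f, which is specific to Kupffer cells, was not called at 136, 23.1 and 88.6 TPM against 122, 115 and 113 TPM (log2 fold change -0.74 ± 0.97 (SE), adjusted p = 0.574), with UTOpiA replicate 2 alone far below normal.

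T and NK cell markers were called higher in 12 of 19 (median 1.80, or 1.58 with bounds, summed TPM 55.7 to 135 against 26.6 to 29.3), a count of 7 without UTOpiA replicate 1 or normal replicate 2. Nkg7, of cytotoxic granules, stood at 16.1, 6.89 and 4.8 TPM against 0.284, 1.2 and 1.32 TPM (log2 fold change 2.94 ± 0.64 (SE), adjusted p = 0.00621). B and plasma cell markers had 0 of 8 called. Of 14 erythroid markers 8 had enough counts to be tested, and 6 were called higher (median 2.55). Hbb stood at 599, 367 and 487 TPM against 119.5, 36.7 and 38.3 TPM (log2 fold change 2.62 ± 0.49 (SE), adjusted p = 0.00351). Globin genes are near-identical, so single members are uncertain. Sinusoidal and vascular endothelial markers had 2 of 18 called higher (11.1%, beside 18.2% of all genes) and 1 lower (5.56%, near the 6.81% of all genes), with a median of 0.23. The fallen gene was the VEGF receptor Kdr (log2 fold change -1.5 ± 0.22 (SE), adjusted p = 0.00108). Without UTOpiA replicate 2, 0 members were called higher, and 1 without UTOpiA replicate 1 or normal replicates 1 or 3.

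Lists for tissue that could be taken with the liver were small. Enough counts to be tested were held by 4 of 9 mesothelial, 4 of 13 adipose and muscle and 4 of 14 pancreatic and gut markers. A marker near 0 in normal livers could be tested only through its counts in ACLF livers, so the shares called higher are partly set by the filter. Mesothelial markers, of the liver surface, had 3 of 4 called higher (median 3.21, or 2.81 with bounds), and mesothelin (Msln) stood at 193, 359.7 and 64.9 TPM against 0.229, 0.97 and 0.372 TPM (log2 fold change 8.16 ± 0.71 (SE), adjusted p = 0.000134). Adipose and muscle markers had 3 of 4 called higher (median 3.73, or 1.71 with bounds), led by Fabp4, which macrophages and capillaries also express, at 119, 116 and 157 TPM against 1.87, 2.47 and 2.26 TPM (log2 fold change 5.62 ± 0.45 (SE), adjusted p = 9.98e-05), while Lep, Plin1 and Mb were at 0 in all UTOpiA livers. Of 4 pancreatic and gut markers 1 was called higher and 1 lower (Fabp2, log2 fold change -1.46 ± 0.43 (SE), adjusted p = 0.0232), the latter lost without any library except UTOpiA replicate 1 (adjusted p up to 0.0726) and with library totals alone. Cpa1, Ctrb1, Pnlip, Prss1 and Prss2 were at 0 in all UTOpiA livers. Hepatocyte markers had 3 of 11 called lower (Alb, Ttr and Cps1) and 1 higher (Pck1), with a median of -0.62. The part of these marker shifts in the functions above was not tested.

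Not every function had an equal share of genes near normal. Beside the 40.1% of all genes tested, 37 of 45 ribosomal RNA processing genes, 17 of 30 endoplasmic reticulum stress genes, 11 of 22 hepatocyte transcription factors and 35 of 73 respiratory chain genes were near normal. In contrast 0 of 31 P450 genes, 0 of 17 bile acid synthesis genes, 1 of 42 fatty acid oxidation genes, 1 of 41 lipid synthesis genes and 3 of 49 amino acid breakdown genes were, and many of the rest were neither called nor near normal.

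Ontology terms in the deposited table were counted as well. Among 1210 terms with 15 to 150 tested genes, those with the largest shares called higher, beside 18.2% of all genes, included positive regulation of T cell activation (12 of 16 genes, 75.0%), class II antigen presentation of exogenous peptides (11 of 15, 73.3%) and collagen fibril organization (26 of 39, 66.7%). The largest share called lower, beside 6.81% of all genes, was that of ubiquinone biosynthesis, the making of coenzyme Q, with 8 of 15 genes (53.3%), among them Coq9, Pdss2 and Coq8a. The tricarboxylic acid cycle had 9 of 25 genes called lower (36.0%) and peroxisome organization 7 of 21 (33.3%). These terms were ranked on their calls, so their shares are a description.

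The UTOpiA livers did not vary alike in all functions. UTOpiA replicate 2 was the farthest from normal of the 3 in 20 of 28 function lists. Amino acid breakdown genes had median log2 differences from the mean normal liver of -0.82, -1.60 and -0.84 in UTOpiA replicates 1, 2 and 3, plasma carrier genes -0.38, -1.05 and -0.19, and conjugation enzymes -0.80, -1.76 and -1.0. Matrix genes were at 1.92, 2.71 and 1.91. Acute-phase genes were ordered otherwise, at 0.80, 1.57 and 1.94, with replicate 3 highest, and cell cycle genes were highest in replicate 1 at 1.48.

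**Figure D5:**
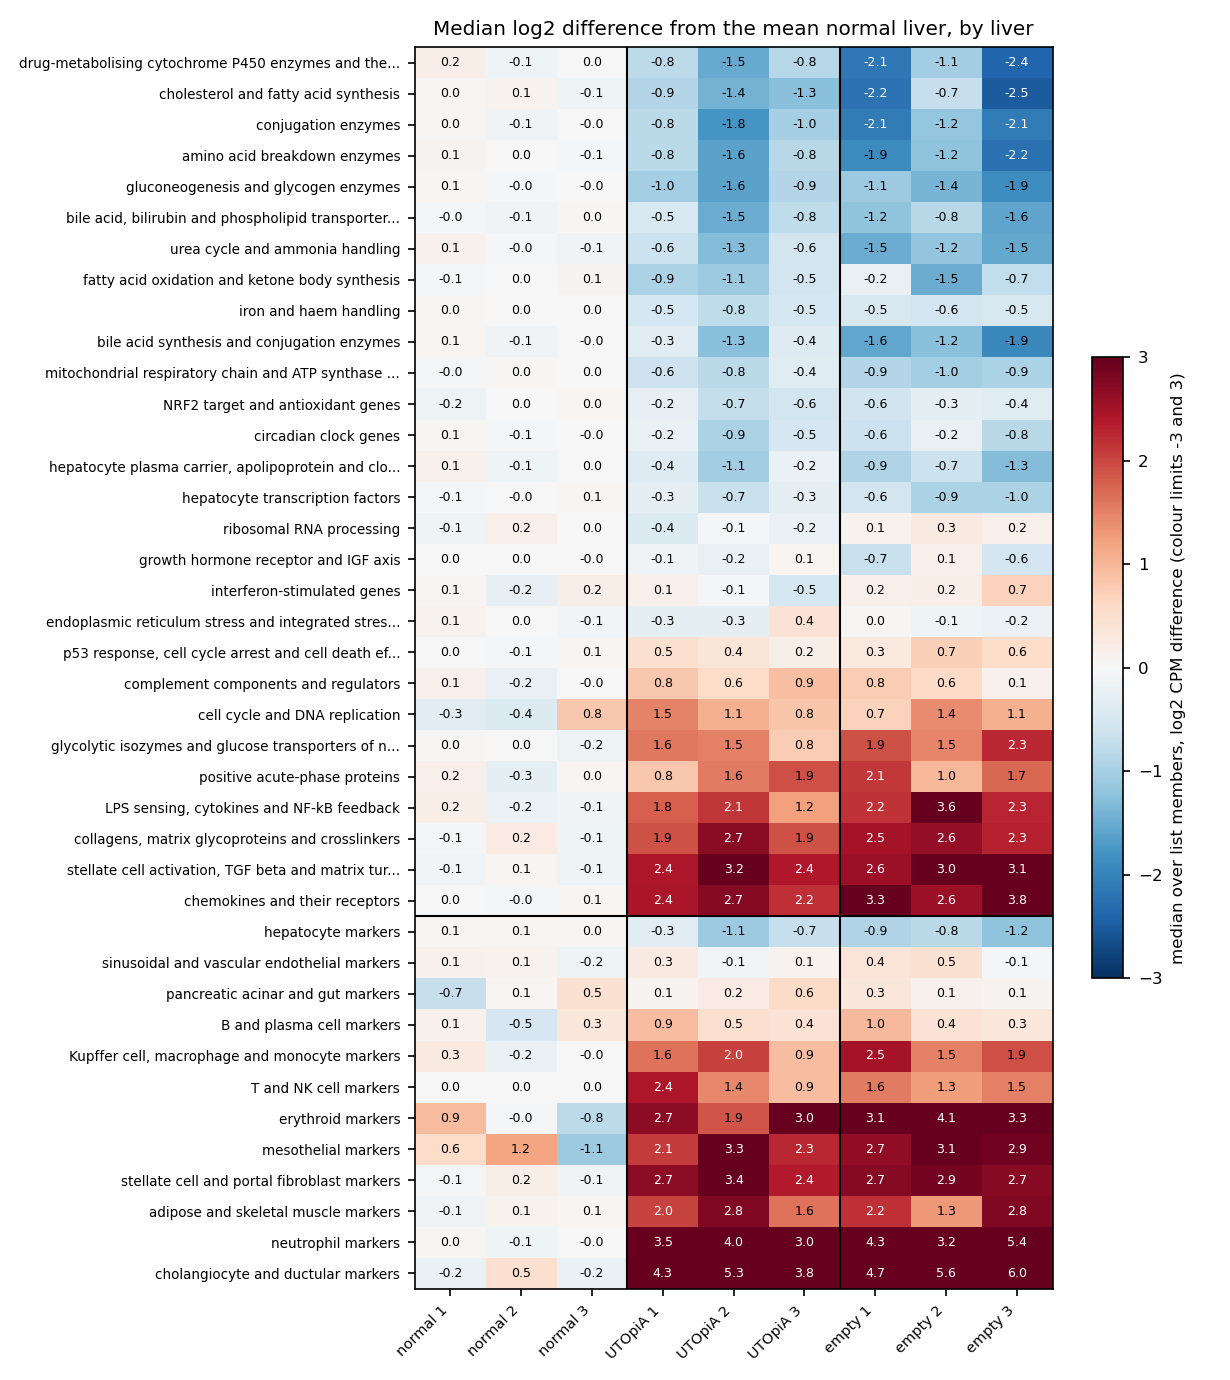
Median log2 CPM difference of each list's members from the mean normal liver (colour and printed value, colour limits -3 and 3) in each of the 9 livers (columns), with 28 function lists above and 12 marker lists below the horizontal line. A normal liver was compared with the mean of the other normal livers. Normal livers stay between -1.1 and 1.19 in every list, and UTOpiA replicate 2 is the UTOpiA column farthest from 0 in 20 of the 28 function lists.

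Among the single genes with the widest spread among UTOpiA livers were Mup5, RT1-DMb, Serpina6, Mir675, Mt2A, Slc1a4, Gsta5, A2m and Sult1e1. The macroglobulin A2m, an acute-phase protein of rats, was at 26.3, 82 and 217 TPM against 1.56, 1.75 and 2.44 TPM (log2 fold change 5.66 ± 1.35 (SE), adjusted p = 0.0113), highest in replicate 3, while Serpina6, at 104, 6.69 and 17.6 TPM, was highest in replicate 1. Slc1a4, an amino acid transporter, stood at 4.8, 16.1 and 45.2 TPM against 2.42, 1.98 and 2.7 TPM, and its call (log2 fold change 3.06 ± 0.77 (SE), adjusted p = 0.0139) was lost without normal replicate 2 (adjusted p = 0.0524). RT1-DMb, which loads class II molecules, was at 29.3, 34.8 and 0.311 TPM against 0.143, 0.0675 and 0 TPM, present in a pair of the UTOpiA livers and almost absent from the other. Its call (log2 fold change 7.70 ± 2.66 (SE), adjusted p = 0.0477) was lost without any library except UTOpiA replicate 3 (adjusted p up to 0.126). Mir675, a microRNA gene inside the long RNA H19 whose reads could be those of H19, stood at 643, 46.5 and 41.3 TPM and at 0 in normal livers, and lost its call when any single library was left out (adjusted p up to 0.0969).

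Livers of the empty group share the normal livers with this comparison, so the values are given side by side only. No gene was called between the UTOpiA and the empty livers by edgeR (1456 genes at an unadjusted p under 0.05, smallest adjusted p = 0.17). The study, with DESeq2 and the same thresholds, reported genes that were higher and genes that were lower between these groups. Here DESeq2 and the other alternatives were not fitted to this pair. The median log2 fold change from normal was -0.99 in the UTOpiA group and -1.59 in the empty group for amino acid breakdown, -0.44 and -0.96 for plasma carriers, -0.81 and -1.49 for urea and ammonia genes, and -0.73 and -0.73 for fatty acid oxidation. For chemokines it was 2.98 and 3.93, for cytokine genes 2.19 and 3.06, for matrix genes 2.48 and 2.49 and for acute-phase genes 1.56 and 1.67. Other lists had medians farther from 0 in the UTOpiA group, with 0.73 and 0.46 for complement, -0.55 and -0.30 for antioxidant genes, -0.64 and -0.39 for iron and haem genes, -0.51 and -0.29 for clock genes and 3.26 and 2.88 for stellate cell markers. Gene by gene, the median of UTOpiA minus empty was 0.34, -0.14, 0.11, 0.18 and 0.08 in these lists. The iron and clock genes thus went the other way by this measure. Without UTOpiA replicate 2 the stellate cell marker median was 2.57. These differences between the medians of the groups were not tested. Lcn2 stood at 290.5, 2523 and 417 TPM in the empty livers, below all UTOpiA livers, at a log2 difference of UTOpiA minus empty of 2.63 (95% interval 0.93 to 4.33, adjusted p = 0.349). Hamp was at 729, 1195 and 1544 TPM there (UTOpiA minus empty -1.30, 95% interval -2.36 to -0.25, adjusted p = 0.412), and Cdkn1a at 20.5, 45.3 and 45 TPM (UTOpiA minus empty -0.78, 95% interval -1.71 to 0.14, adjusted p = 0.544).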

How the data were processed

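Liver RNA was sequenced in 3 normal rats, 3 ACLF rats on the UTOpiA circuit and 3 on the empty circuit. The authors deposited whole-number counts of reads per gene and TPM for 32883 genes. Per the labels, reads were trimmed with Trimmomatic, aligned to rn6 with HISAT2 and counted with featureCounts, while the study's methods name Cutadapt 1.9.1, HISAT2 2.0.1, featureCounts 2.6.0, another library kit and a mouse genome. Chromosome 1 in the table ends at 282724300. The strand setting is not given in the sources used here, so overlapping and antisense genes cannot be told apart. The TPM are as deposited and were used for abundance.

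Counts were fitted with edgeR 4.0.16 in R 4.3.3 (quasi-likelihood, robust, filterByExpr on the 3 groups, TMM factors of 0.8025 to 1.3208, all 9 libraries, no covariate), with Benjamini-Hochberg adjustment, and called at an adjusted p under 0.05 and a fold above 2. The p-values measure the spread between these livers only. In data simulated for this comparison with 12723 genes, 71% of genes changed by a log2 of 1.5 and 98% of those changed by 3 were called, and 5.59% of calls were false. The simulation changed only 100 well-expressed genes per size, as many up as down, with every library built on the normal profile. Far more genes were called in these livers, and mostly higher, so these rates need not hold for them. A group with at most 3 counts in every library was set to 3 counts per library to give a bound on the fold, which covers counting error only.

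The 28 function lists and 12 marker lists, the comparison and the rules were chosen with earlier results of these data known. Named were the 12 genes with the highest and the 12 with the lowest fold change (mean of at least 20 TPM, no overlap between groups), up to 3 members of each list per direction with at least 5 TPM and its most abundant uncalled member, the 8 most abundant near-normal genes, genes whose product the study measured otherwise, and the 10 called genes with the widest spread among UTOpiA livers. Other genes were named after their values were seen. Alternatives were DESeq2 1.42.0, limma 3.58.1 on log2 TPM, other scalings and filters, a test against 2-fold, the 6 libraries alone, a replicate block and leaving out each library. Promoter sequences are from RefSeq (GRCr8). Some named genes and 1 of the 5 motifs searched are not reported here.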

Additional observations from a re-analysis of the deposited data

How the results depend on the processing

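Against 2563 genes called higher and 959 called lower, leaving out each library gave 2091 to 2630 higher and 725 to 1104 lower, with 4869 to 5584 genes near normal. Limma on log2(TPM + 1) called 2167 higher and 483 lower, limma on log2(TPM + 0.1) 2677 and 524, and limma without a filter on low values 2003 and 473. Library totals alone gave 3437 and 486, and a test against a 2-fold change 1405 and 265. DESeq2 called 2739 and 1051, the 6 libraries alone 2278 and 1025, upper-quartile scaling 2725 and 818, and no filter on counts 2594 and 926. No gene called in the main comparison was called with the opposite sign in any of these 18 settings. Of 164 named genes called, 118 kept the call in all 6 fits without 1 library, and the cause of the lost calls was not tested. The estimates of 14 named genes that were not called, such as Dbp and Vegfa, changed sign in some setting. Same-numbered livers of the UTOpiA and normal groups did not deviate together (correlations of 0.013, 0.064 and -0.02). Those of the UTOpiA and empty groups had correlations of -0.144, -0.183 and -0.147. These values show no pairing of the samples by number, but with 3 livers per group they cannot settle whether there was one. With the replicate block 2344 genes were called higher, 897 lower and 5460 near normal. With 3 livers per group and 71% of changes of 1.5 on the log2 scale recovered in simulated data, changes of that size could be missed.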
